A study of Mus musculus with 8 samples.

Results

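The interleukin 1 system and the inflammasome were followed through 10 genes, Il1a, Il1b, Il1rn, Il1r1, Il1r2, Il18, Nlrp3, Pycard, Casp1 and Casp4, in macrophages that had invaded the ischemic mouse brain and in the resident microglia of the same animals. Every array probe whose gene name in the array files equals 1 of these symbols was taken, which gave 12 of 55681 gene probes and 10 of 34821 gene names. Nlrp3 and Casp4 had 2 probes each and the other 8 genes had 1. The invading macrophages (n = 4) were RFP-positive and the microglia (n = 4) were GFP-positive cells, sorted by fluorescence from bone marrow chimeric C57BL/6 mice after a 30 min occlusion of the middle cerebral artery (MCAo) and 7 days of reperfusion, with no other treatment. Macrophages 1 to 4 and microglia 1 to 4 came from animals A to D in that order, so each animal gave 1 sample of both kinds. Every animal had undergone the occlusion and carried transplanted marrow, and no uninjured brain or blood cell was compared here. The labels give the fluorescent marker as the sort criterion and name no further surface marker. Messenger RNA was copied to cDNA and amplified by a global PCR before labelling with a single dye, Cy3.

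Interleukin 1 alpha and interleukin 1 beta are cytokines that bind the same signalling receptor, encoded by Il1r1, and switch on NF-kappaB target genes. The receptor antagonist encoded by Il1rn occupies that receptor without signalling, and the decoy receptor encoded by Il1r2 binds the ligands without passing on a signal. Interleukin 1 beta and interleukin 18 are made as inactive precursors, which caspase-1 cleaves after the sensor NLRP3 and the adaptor ASC, the product of Pycard, have assembled into an inflammasome. Casp4 is the mouse gene for the caspase that responds to bacterial lipopolysaccharide inside the cell. Microglia and macrophages are known sources of these cytokines in the injured brain. The arrays measure transcripts, so neither cleavage nor release of the cytokines was measured.

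The probes that the results turn on are shown by the first 30 bases of their 60-base sequences, read from the array files and printed 5′ to 3′ with coordinates along the strand that the files give. Il1a and Il1b are shown because they are neighbours, both on the minus strand of chromosome 2 with probe starts 64353 bases apart in build mm9, and Il1a was called while Il1b was not. The Nlrp3 probes are shown because they are separate measurements, with starts 1427 bases apart on the plus strand of chromosome 11. The Casp4 probes are shown because they are not separate: they share 55 of 60 bases on the plus strand of chromosome 9, and the capitals mark the 25 shared bases that fall in both printed stretches. No genome of build mm9 was used here, so the exon or untranslated region under each probe was not determined.
Il1a probe, chr2:129126024-129126053: aatgccagttgagtaggataaaggtataag
Il1b probe, chr2:129190377-129190406: aggttcctataatatggatgagaattttta
Nlrp3 probe 1, chr11:59378554-59378583: cggccttacttcaatctgttgttcagctct
Nlrp3 probe 2, chr11:59379981-59380010: atatcctcagtgggcaaggtgttccctctt
Casp4 probe 1, chr9:5336658-5336687: ccagcCTAAGCAACACAGTGGGATTCTGTT
Casp4 probe 2, chr9:5336663-5336692: CTAAGCAACACAGTGGGATTCTGTTccata

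Upstream sequence is shown for Il1a and Nlrp3, the genes with a probe past the threshold, and for Il1b, the neighbour of Il1a. Each run is the 250 bases before a RefSeq transcript start in GRCm38.p6, a newer build than that of the probes, with motif matches in capitals. The motifs searched on both strands were GGGANNNNCC for NF-kappaB, GAGGAA for PU.1, TTNNGCAA for C/EBP and TATAAA for the TATA box. Il1a held GAGGAA at 41 to 36 and TATAAA at 32 to 27 bases before the start, and Il1b held TATAAA at 31 to 26. Nlrp3 held a match of the NF-kappaB motif at 186 to 177 bases before start 1. Start 2 of Nlrp3 had 3 matches of GAGGAA, at 220 to 215 and 36 to 31 on the plus strand and at 129 to 124 on the other. No matches in the printed runs overlapped.
Il1a, minus strand, chr2:129309973-129310222: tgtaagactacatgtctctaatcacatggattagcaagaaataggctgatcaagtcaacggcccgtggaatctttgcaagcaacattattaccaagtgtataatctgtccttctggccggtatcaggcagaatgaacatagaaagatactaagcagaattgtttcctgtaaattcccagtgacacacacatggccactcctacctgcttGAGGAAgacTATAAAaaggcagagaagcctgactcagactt
Il1b, minus strand, chr2:129371140-129371389: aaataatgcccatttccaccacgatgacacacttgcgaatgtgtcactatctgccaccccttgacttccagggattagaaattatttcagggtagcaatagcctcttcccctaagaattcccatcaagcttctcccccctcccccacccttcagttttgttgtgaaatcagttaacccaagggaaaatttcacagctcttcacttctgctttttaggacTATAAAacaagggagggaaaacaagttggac
Nlrp3 start 1, plus strand, chr11:59541319-59541568: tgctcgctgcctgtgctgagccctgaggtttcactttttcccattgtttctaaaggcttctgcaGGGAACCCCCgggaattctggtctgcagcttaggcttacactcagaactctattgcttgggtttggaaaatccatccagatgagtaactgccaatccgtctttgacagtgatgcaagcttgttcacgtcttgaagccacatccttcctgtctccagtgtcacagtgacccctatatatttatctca
Nlrp3 start 2, plus strand, chr11:59542436-59542685: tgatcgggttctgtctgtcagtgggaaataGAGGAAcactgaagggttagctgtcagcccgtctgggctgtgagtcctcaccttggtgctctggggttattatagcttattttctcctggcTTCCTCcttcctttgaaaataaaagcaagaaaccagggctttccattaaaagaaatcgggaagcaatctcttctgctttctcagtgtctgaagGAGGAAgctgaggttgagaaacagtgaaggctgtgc

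All 10 genes matched the RefSeq table, with 15 starts. The NF-kappaB motif was found in 3 of the 10 genes (Il1rn, Nlrp3 and Casp4), against 17.6% of 32851 promoters of the table. GAGGAA was found in 4 genes (Il1a, Nlrp3, Pycard and Casp1), against 23.3% of promoters. TTNNGCAA was found in 2 genes (Il1r1 and Pycard), against 9.56% of promoters. TATAAA was found in 3 genes (Il1a, Il1b and Il18), against 12.4% of promoters. These matches are descriptions of letters in a window and were not tested as sites. A gene with several starts had several windows, while the background share is per window.

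Signals are given as log2 relative to the 75th percentile of their own array, so that 0 is a probe as bright as that percentile, and only 1 and the same probe is compared between samples. Groups were compared with limma over the 29359 probes that exceeded background clearly on 4 or more of 8 arrays, and a probe was called at a Benjamini-Hochberg adjusted p under 0.05. All 12 probes were tested, 10 of them well above background on all 8 arrays. The fitted mean was lower in macrophages for 9 probes and higher for 3. The 9 include both overlapping Casp4 probes, and those of Casp1 (-0.04) and Il1r1 (-0.031), whose signs were not settled. In limma 2 probes were called lower, the Il1a probe and 1 Nlrp3 probe, against 4.11% of all tested probes, and 0 were called higher, against 2.34% of all tested probes. An unadjusted p under 0.05 was reached by 4 of the 12 probes, those of Il1a, Il18 and Nlrp3, all with the lower mean in macrophages, against 23.5% of all tested probes in either direction. The median difference, macrophages minus microglia, was -0.39 over the 12 probes and -0.0011 over all tested probes. Groups did not overlap for 3 of the 12 probes (Il1a and both of Nlrp3), against 16.7% of all tested probes.

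**Figure D1:**
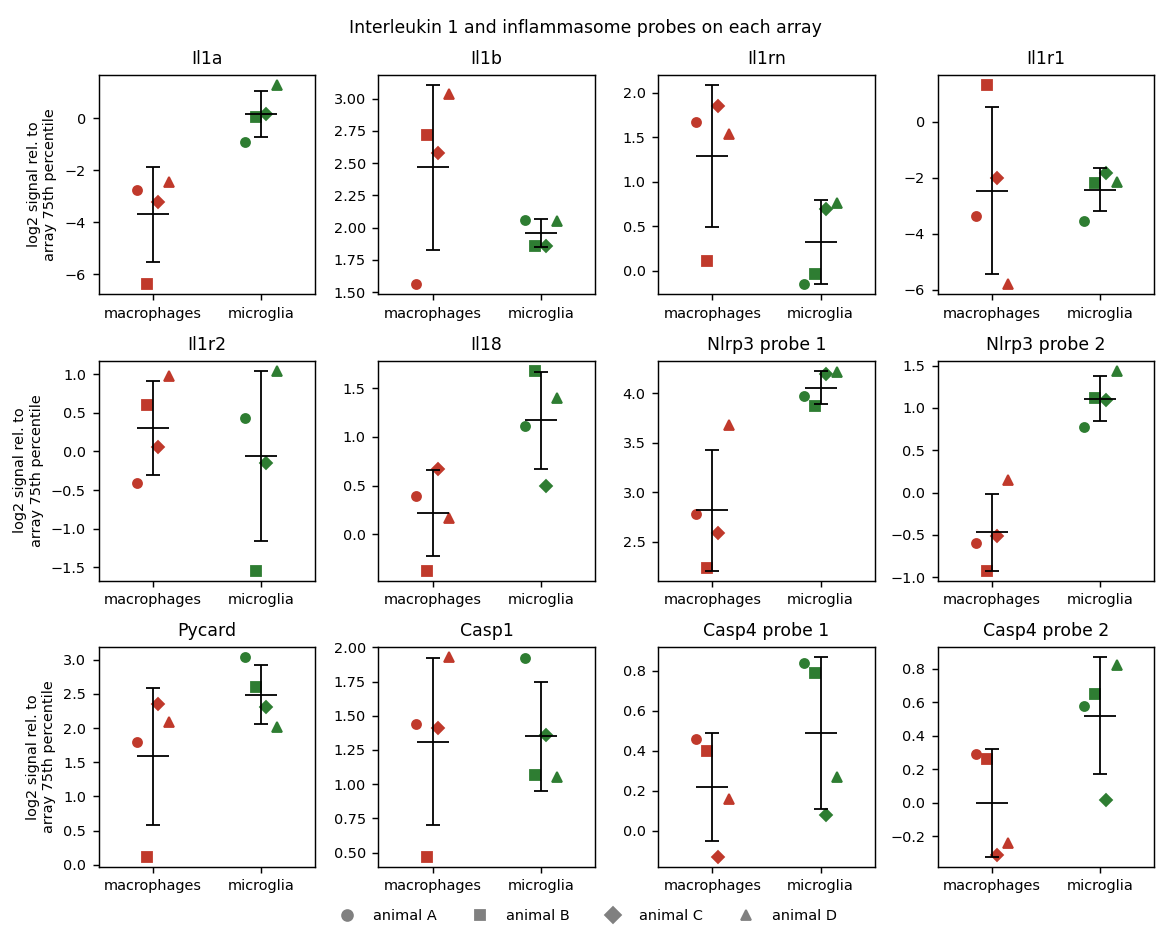
Log2 signal relative to the array's 75th percentile (vertical axes, scaled to each probe) for the 12 probes, with invading macrophages in red at left and resident microglia in green at right. Each point is 1 array, its shape gives the animal, and bars are the mean and SD of 4 arrays. Il1a and both Nlrp3 probes show no overlap between the groups, and macrophages 2 (square) is the lowest macrophage point for Il1a, Il1rn, Il18, Nlrp3, Pycard and Casp1 and the highest for Il1r1.

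The arrays had 45.7% to 56.8% of gene probes well above background in macrophages and 50.5% to 57.1% in microglia, with 0 saturated probes. Macrophages 2 stood apart, correlating with the other macrophage arrays at 0.840 to 0.872 across gene probes, whereas the other macrophage arrays correlated with each other at 0.931 to 0.951 and microglia at 0.927 to 0.956. Of 11 microglial markers 7 were called lower in macrophages, with summed signals of 204 to 489 times the 75th percentile in macrophages and 988 to 1260 in microglia. Of 10 monocyte markers 6 were called higher, with a median difference of 2.12 over the 10. Their summed signals were 206 to 436 in macrophages and 102 to 162 in microglia. F10, the brightest, made up most of the microglial sums and was not called by this probe (-0.29, limma adjusted p = 0.423). The other tested F10 probe had a difference of 2.08. Endothelial markers (12 genes, brightest Ly6a) summed to 78.8, 717, 104 and 25.9 in macrophages 1 to 4, against 26.6, 8.70, 17.1 and 9.27 in microglia 1 to 4, with 10 to 12 and 6 to 7 of them well above background. Red blood cell markers (4 genes, brightest Hba-a1) summed to 206 in macrophages 2, to 2.39 to 7.42 in the other macrophages and to 0.066 to 1.36 in microglia. Results on the members are therefore also given without macrophages 2.

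Among the ligands, Il1a was the member that differed most. Its signal was -2.77, -6.38, -3.20 and -2.43 in macrophages 1 to 4, against -0.89, 0.058, 0.18 and 1.30 in microglia 1 to 4. Every macrophage sample lay below every microglia sample, and macrophages 2, the only sample in which the probe was not well above background, was the lowest. The means were -3.69 ± 1.82 in macrophages and 0.16 ± 0.89 in microglia (SD, n = 4 each). The difference was -3.85 with a standard error of 0.87 (95% interval -5.83 to -1.88, limma adjusted p = 0.0352), and with the 1 dim signal raised to its array's floor this scale and these 8 arrays gave at least 11.4-fold lower signal in macrophages. The size depended on the processing and on the arrays: the fitted fold was 3.93 with normexp background correction (difference -1.97), 5.1 within slide 1, 7.77 without macrophages 2 and 7.95 with slide and animal as blocks, all lower in macrophages. Within animals A to D the difference was -1.88, -6.44, -3.37 and -3.72, so it was lower in macrophages in 4 of 4. The samples of animal B lay on different slides, so the fit with slide and animal as blocks takes its difference from animals A, C and D alone. Without macrophages 2 the difference was -2.96 (limma adjusted p = 0.00968). With a block for the animal the size was unchanged but the call was lost (limma adjusted p = 0.0609). In sorted bulk samples, fewer cells that make a transcript and less of it per cell cannot be told apart. The fall of Il1a in macrophages went with lower summed microglial markers on the same arrays, and the part of that in the result was not tested.

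Leaving out 1 array at a time kept the Il1a difference between -4.28 and -2.96. The call held in 2 of these 8 fits, those without macrophages 2 and without macrophages 4 (limma adjusted p = 0.00968 and 0.0368), and was lost in the other 6, with adjusted p up to 0.0968 without microglia 4. Within slide 1, which held macrophages 1 and microglia 1 and 2, the difference was -2.35, and within slide 2, which held macrophages 2 to 4 and microglia 3 and 4, it was -4.74, neither of them called (limma adjusted p = 0.252 and 0.248). The sign of the difference was therefore the same on both slides.

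Il1b was well above background on all 8 arrays and was not called. Its signal was 1.56, 2.72, 2.58 and 3.04 in macrophages 1 to 4, against 2.06, 1.86, 1.86 and 2.05 in microglia 1 to 4. Macrophages 1 lay below all 4 microglia samples and the other 3 macrophage samples lay above them. The means were 2.47 ± 0.64 in macrophages and 1.96 ± 0.11 in microglia (SD, n = 4 each), a difference of 0.51 with a standard error of 0.33 (95% interval -0.24 to 1.27, limma adjusted p = 0.387). The interval spans 0.848 to 2.41 times the microglial signal. The macrophage samples spread over 1.48 log2 units and the microglia samples over 0.20. Il1b is printed 10 times on each array, and the SD between its spots within an array was 0.034 to 0.087; these spots share 1 labelled sample, so this SD covers spotting and scanning only. Within animals the difference was -0.50 in A and 0.86, 0.71 and 0.99 in B, C and D. It was -0.40 within slide 1, whose only macrophage sample is that of animal A, and 0.82 within slide 2 (limma adjusted p = 0.812 and 0.432). Without macrophages 2 it was 0.43 (limma adjusted p = 0.439). Neutrophils are another known source of this cytokine. The 12 neutrophil markers, of which Mpo and Elane were well above background on no array, summed to 185 to 232 in macrophages and 138 to 173 in microglia, with 0 of 8 tested genes called by limma. Csf3r, the brightest, made up most of the microglial sums, with mean log2 signals of 6.59 in macrophages and 6.91 in microglia. Mmp8 (difference 2.30, limma adjusted p = 0.133) passed the threshold under the animal block and without macrophages 2 (limma adjusted p = 0.024 and 0.0484). The median log2 signal of the 12 markers was 0.25, 3.77, 1.42 and 1.83 in macrophages 1 to 4, against 0.61, 0.93, 0.018 and 1.22 in microglia 1 to 4. Macrophages 1, the lowest macrophage sample for Il1b, thus also had the lowest of the macrophage medians. S100a9, for example, was 1.54 there and 5.27, 3.47 and 4.03 in macrophages 2 to 4. Not every neutrophil marker was lowest in macrophages 1. Mmp8 was highest there (6.69), and Csf3r was lowest in macrophages 2. Ly6g was lowest in macrophages 4 (1.67), the brightest macrophage sample for Il1b, and was 3.49 in macrophages 1. The part of neutrophil transcripts in the Il1b values was not tested.

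Il1a, which was called, was also set against Il1b, which was not, within each array. On each array, the log2 signal of the Il1a probe minus that of the Il1b probe was -4.32, -9.10, -5.77 and -5.46 in macrophages 1 to 4, against -2.95, -1.80, -1.69 and -0.76 in microglia 1 to 4. The groups did not overlap in this value, as they had not in Il1a alone. The -9.10 of macrophages 2 rests on an Il1a signal that was not well above background. The value averaged -6.17 ± 2.05 in macrophages and -1.80 ± 0.90 in microglia (SD, n = 4 each). It is free of any scaling between arrays, and it is given with no test because the pair was put together after both values were known. It says nothing of which transcript was more abundant.

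**Figure D2:**
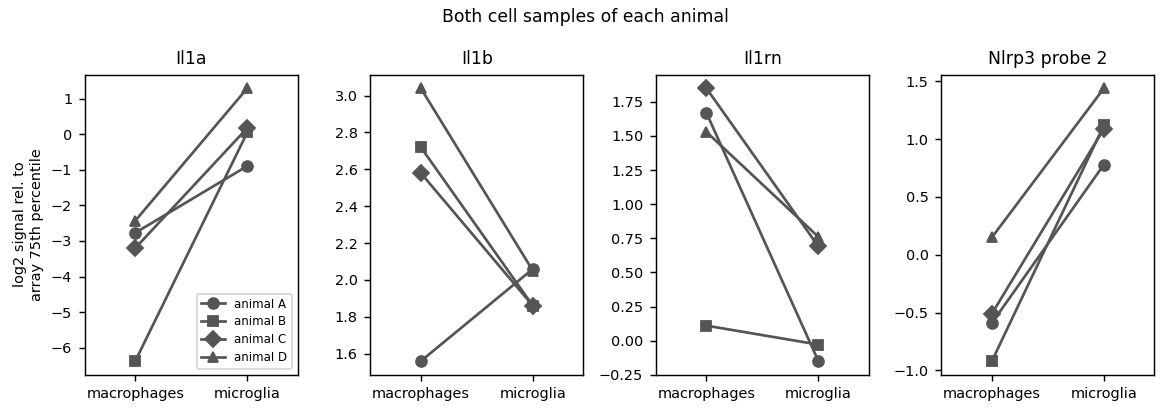
Log2 signal relative to the array's 75th percentile (vertical axes, scaled to each probe) for Il1a, Il1b, Il1rn and Nlrp3 probe 2, with a line joining the macrophages (left) and microglia (right) of each of the 4 animals. Macrophages are lower in 4 of 4 animals for Il1a and Nlrp3 probe 2, higher in 4 of 4 for Il1rn, and higher in 3 of 4 for Il1b.

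Il18, the other cytokine that caspase-1 matures, was not called. Its signal was 0.39, -0.37, 0.67 and 0.17 in macrophages 1 to 4, against 1.11, 1.68, 0.50 and 1.40 in microglia 1 to 4. Only animal C gave macrophages above microglia (0.17), and that animal's values made the groups overlap. The means were 0.22 ± 0.44 in macrophages and 1.17 ± 0.50 in microglia (SD, n = 4 each), a difference of -0.96 with a standard error of 0.34 (95% interval -1.73 to -0.19, unadjusted p = 0.0203, limma adjusted p = 0.132). Across 24 alternative settings the difference stayed between -1.18 and -0.59 and was called in 0. The local background of this probe was flagged on macrophages 3, and without that spot the difference was -1.11 (limma adjusted p = 0.118). Without macrophages 2 it was -0.76 (limma adjusted p = 0.149).

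The antagonist Il1rn had the largest positive difference of the members and was not called in the fit of all 8 arrays. Its signal was 1.67, 0.11, 1.85 and 1.53 in macrophages 1 to 4, against -0.15, -0.029, 0.69 and 0.76 in microglia 1 to 4. Macrophages 1, 3 and 4 lay above every microglia sample, while macrophages 2 lay among them. The means were 1.29 ± 0.80 in macrophages and 0.32 ± 0.47 in microglia (SD, n = 4 each), a difference of 0.97 with a standard error of 0.43 (95% interval -0.0067 to 1.96, limma adjusted p = 0.215). Within animals A to D it was 1.82, 0.14, 1.16 and 0.78, positive in 4 of 4. Without macrophages 2 it was 1.37 (limma adjusted p = 0.0246) and passed the threshold.

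That fit without macrophages 2 called 7.14% of all tested probes higher and 6.83% lower, and of the 12 probes it called 1 higher (Il1rn) and 2 lower (Il1a and Nlrp3 probe 2). In the fit with the animal as a block, 1.2% of all tested probes were called higher and 2.5% lower, and of the 12 probes 0 were called higher and 1 lower, Nlrp3 probe 2. Nlrp3 probe 2 was thus the member called under all 3 of these fits.

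Both receptors varied more among the samples of a group than between the groups. Il1r1, the signalling receptor, had -3.36, 1.32, -2.0 and -5.80 in macrophages 1 to 4, against -3.55, -2.18, -1.85 and -2.15 in microglia 1 to 4. It was well above background in 2 of 4 macrophage and 3 of 4 microglia samples, and macrophages 2 was by far the brightest. The means were -2.46 ± 2.97 in macrophages and -2.43 ± 0.76 in microglia (SD, n = 4 each), a difference of -0.031 with a standard error of 1.29 (95% interval -2.97 to 2.91, limma adjusted p = 0.992). Macrophages 2, at 1.32, was also the sample with the highest summed endothelial markers, 717 against 25.9 to 104 in the other macrophages. Red blood cell, lymphoid, dendritic and mural (pericyte and smooth muscle) markers peaked in macrophages 2 too. Their sums there were 206, 18.4, 9.62 and 5.76, against at most 7.42, 4.98, 3.6 and 0.61 in the other macrophages. Brain endothelial cells are known to carry the receptor encoded by Il1r1. The part of these or other cells in the value was not tested. Without macrophages 2 the difference was -1.29 (limma adjusted p = 0.344). The sign was not settled: the difference was 0.18 with arrays centred on their median and 0.42 with normexp background correction. The interval spans 0.127 to 7.53 times the microglial signal, so no likeness of the groups was shown.

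Il1r2, the decoy, had -0.41, 0.60, 0.054 and 0.97 in macrophages 1 to 4, against 0.43, -1.54, -0.15 and 1.04 in microglia 1 to 4. The groups overlapped throughout, with both the lowest and the highest sample in microglia. The means were 0.30 ± 0.61 in macrophages and -0.055 ± 1.10 in microglia (SD, n = 4 each), a difference of 0.36 with a standard error of 0.56 (95% interval -0.91 to 1.63, limma adjusted p = 0.738). Within animals A to D the difference was -0.85, 2.14, 0.20 and -0.065, and without macrophages 2 it was 0.26 (limma adjusted p = 0.809).

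**Figure D3:**
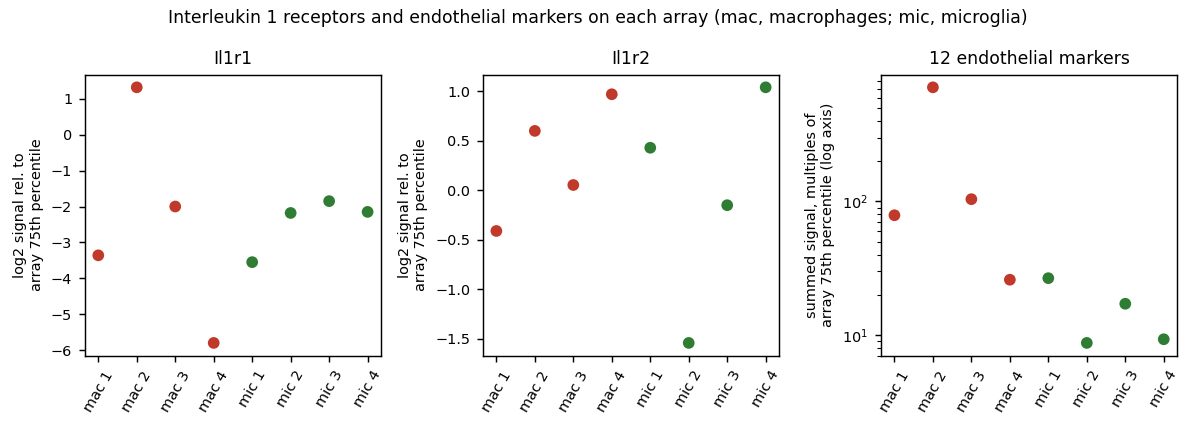
Log2 signal of Il1r1 and Il1r2 relative to the array's 75th percentile, and the summed signal of 12 endothelial markers as multiples of that percentile on a log axis, for macrophages 1 to 4 (red) and microglia 1 to 4 (green). Macrophages 2 is highest for Il1r1 (1.32) and for the endothelial sum (717), and Il1r2 shows no such peak (0.60).

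Nlrp3, the sensor of the inflammasome, fell in macrophages by 1 of its 2 probes, and the other, with a difference of the same sign, missed the threshold. Probe 2 had -0.59, -0.92, -0.51 and 0.15 in macrophages 1 to 4, against 0.78, 1.12, 1.09 and 1.44 in microglia 1 to 4. The brightest macrophage sample, from animal D, stayed below the dimmest microglia sample, from animal A. The means were -0.47 ± 0.45 in macrophages and 1.11 ± 0.27 in microglia (SD, n = 4 each). The difference was -1.58 with a standard error of 0.29 (95% interval -2.23 to -0.92, limma adjusted p = 0.0153), a 2.98-fold lower signal in macrophages with an interval of 1.89 to 4.7. Within animals A to D it was -1.38, -2.03, -1.60 and -1.29, lower in 4 of 4.

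This call held under the animal block (limma adjusted p = 0.0376) and without macrophages 2 (-1.43, limma adjusted p = 0.0161). It was lost with slide and animal together as blocks (-1.42, limma adjusted p = 0.0692). The samples of animal B lay on different slides, so that fit takes the difference from animals A, C and D alone. It held in 5 of 8 fits that left out 1 array, and was narrowly lost without microglia 2, 3 or 4 (limma adjusted p = 0.0528, 0.0501 and 0.0544). The difference was -1.54 within slide 1 and -1.69 within slide 2, both uncalled with so few arrays (limma adjusted p = 0.363 and 0.24). Sizes on the slides were thus close to that of all arrays.

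Nlrp3 probe 1 had 2.78, 2.24, 2.59 and 3.68 in macrophages 1 to 4, against 3.97, 3.87, 4.20 and 4.22 in microglia 1 to 4. Macrophages 4 came nearest to the microglia samples without reaching them. The means were 2.82 ± 0.61 in macrophages and 4.06 ± 0.17 in microglia (SD, n = 4 each), a difference of -1.24 with a standard error of 0.33 (95% interval -1.99 to -0.50, limma adjusted p = 0.0603). It missed the threshold with all 8 arrays and passed it without macrophages 4 (-1.53, limma adjusted p = 0.0168), though not without macrophages 2 (-1.05, limma adjusted p = 0.0594). Over the 8 arrays the probes correlated at r = 0.96, a value that the difference between the groups contributes to. Probe 1 minus probe 2 was 3.29 ± 0.20 in macrophages and 2.96 ± 0.22 in microglia (SD, n = 4 each), and ranged over the arrays from 3.1 to 3.53 in macrophages and from 2.76 to 3.19 in microglia.

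Pycard, which encodes the adaptor ASC, had 1.80, 0.12, 2.35 and 2.09 in macrophages 1 to 4, against 3.04, 2.60, 2.31 and 2.02 in microglia 1 to 4. Macrophages 2 was lowest, and in animals C and D the 2 cell samples were nearly level (0.042 and 0.069). The means were 1.59 ± 1.0 in macrophages and 2.49 ± 0.43 in microglia (SD, n = 4 each), a difference of -0.90 with a standard error of 0.49 (95% interval -2.03 to 0.22, limma adjusted p = 0.309). Without macrophages 2 it was -0.41 (limma adjusted p = 0.38). The local background of this probe was flagged on macrophages 3, and without that spot the difference was -1.15 (limma adjusted p = 0.23).

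Casp1, the protease of the inflammasome, had 1.44, 0.47, 1.41 and 1.93 in macrophages 1 to 4, against 1.92, 1.07, 1.36 and 1.05 in microglia 1 to 4. The groups overlapped, with macrophages 2 lowest and macrophages 4 highest. The means were 1.31 ± 0.61 in macrophages and 1.35 ± 0.40 in microglia (SD, n = 4 each), a difference of -0.04 with a standard error of 0.36 (95% interval -0.86 to 0.78, limma adjusted p = 0.961). The interval spans 0.552 to 1.72 times the microglial signal. The sign was not settled, being 0.17 with arrays centred on their median and 0.24 without macrophages 2.

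Casp4 was read by 2 overlapping probes, which count as 1 measurement. Probe 1 minus probe 2 ranged over the arrays from -0.55 on microglia 4 to 0.41 on macrophages 4. Probe 1 had 0.46, 0.40, -0.13 and 0.16 in macrophages 1 to 4, against 0.84, 0.79, 0.077 and 0.27 in microglia 1 to 4. Probe 2 had 0.29, 0.26, -0.31 and -0.24 in macrophages 1 to 4, against 0.58, 0.65, 0.014 and 0.82 in microglia 1 to 4. Macrophages lay below the microglia of the same animal in 4 of 4 animals by both probes, yet the groups overlapped. The differences were -0.27 with a standard error of 0.27 by probe 1 (95% interval -0.89 to 0.35, limma adjusted p = 0.583) and -0.52 with a standard error of 0.27 by probe 2 (95% interval -1.14 to 0.11, limma adjusted p = 0.293). Without macrophages 2 they were -0.33 and -0.60 (limma adjusted p = 0.461 and 0.184). Over the 8 arrays the probes correlated at r = 0.74, below the r = 0.96 of the Nlrp3 probes, which share no bases.

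**Figure D4:**
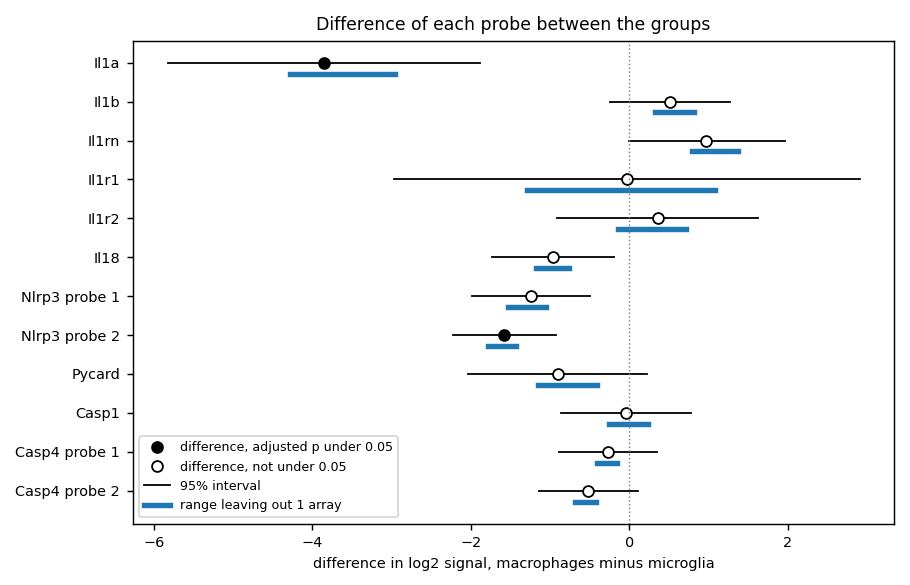
Difference in log2 signal, macrophages minus microglia (horizontal axis), for each of the 12 probes, with its 95% interval (black line) and, in blue, its range when each of the 8 arrays is left out in turn. Filled points have a limma adjusted p under 0.05, which are Il1a (-3.85) and Nlrp3 probe 2 (-1.58); the widest interval is that of Il1r1 (-2.97 to 2.91).

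The genes most like the members over the 8 arrays were sought among 12239 genes by Pearson correlation, as a description, since these arrays share the 2 groups and macrophages 2. Il1a was followed most closely by Csf1r, the receptor for colony stimulating factor 1 (r = 0.995), Lpcat1 (r = 0.995) and Asph (r = 0.993). Nlrp3 by probe 1 was followed by Socs3, a feedback inhibitor of cytokine signalling (r = 0.987), Mettl7a2 (r = 0.982) and Gm8096 (r = 0.978). For Il1b the highest values were lower, with Zic4 (r = 0.941), Wdr17 (r = 0.940) and Phka1 (r = 0.919). The difference between macrophages and microglia was -1.09 for Csf1r and -1.04 for Socs3, neither of them called (limma adjusted p = 0.0687 and 0.0804).

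Around the members, 4 lists of pathway genes were read with 1 probe a gene, the brightest that was tested. Read in the same way, the 10 members had 0 called higher and 1 lower, Il1a, with a median difference of -0.16. Nlrp3 is then represented by probe 1. For all these lists the calls come from the reported fit of 29359 probes, which called 2.34% of them higher and 4.11% lower. A background by gene comes from a separate fit with 1 probe for each of 19745 gene names. With its own adjustment, that fit called 496 higher and 817 lower, with a median difference of 0.02. Adjusted p-values differ slightly between the fits, being 0.0603 and 0.0559 by limma for Nlrp3 probe 1. Of 15 other genes of the interleukin 1 family on the array, 6 were tested, 1 was called higher and 2 lower, with a median of -0.24. The other 9, among them Il33, Il18r1 and Sigirr, were too dim to test.

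Il1rap, the coreceptor that the signalling receptor needs, had -1.20, -0.89, -0.51 and -0.094 in macrophages 1 to 4, against -2.05, -3.23, -2.28 and -2.14 in microglia 1 to 4. Every macrophage sample lay above every microglia sample. It was 3.36-fold higher in macrophages (difference 1.75 with a standard error of 0.36, limma adjusted p = 0.0238), and the animal block ended the call (adjusted p = 0.0555). Il1rl2, the receptor for the interleukin 36 cytokines, had -0.14, -1.48, -1.33 and -1.36 in macrophages 1 to 4, against 1.22, 1.75, 1.71 and 2.07 in microglia 1 to 4. The groups did not overlap, and the gene was 6.81-fold lower in macrophages (difference -2.77 with a standard error of 0.36, limma adjusted p = 0.0028), a call that held under the animal block (adjusted p = 0.0336) and without macrophages 2 (adjusted p = 0.00479). Il1rl1, the receptor for interleukin 33, was lower in macrophages, of which 2 of 4 exceeded background clearly (fitted difference -2.22 with a standard error of 0.52, limma adjusted p = 0.0416). With dim signals raised to the floor these arrays gave at least 3.69-fold, a bound that leaves out sampling error. The call was lost under the animal block and without macrophages 2 (adjusted p = 0.0763 and 0.0525). The other tested Il1rl1 probe had a difference of -3.13. Within the family, called genes thus stood on both sides of the comparison.

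Of 24 other inflammasome genes on the array, 20 were tested and limma called 0 in either direction, with a median of -0.30. The smallest p-values were those of Nlrc4, the sensor of bacterial flagellin and secretion systems (difference 1.56, limma adjusted p = 0.0658), and Mefv, which encodes pyrin (difference 2.54, limma adjusted p = 0.0962). Nlrc4 had 0.91, -0.44, 0.57 and 0.99 in macrophages 1 to 4, against -0.52, -1.91, -0.68 and -1.09 in microglia 1 to 4. Mefv had 0.72, -1.78, 1.33 and -0.077 in macrophages 1 to 4, against -1.32, -3.82, -1.58 and -3.24 in microglia 1 to 4. Both were higher in the macrophages of every animal, and both passed the threshold under the animal block (adjusted p = 0.0414 and 0.0206) and without macrophages 2 (adjusted p = 0.0162 and 0.0241). Their differences thus had the opposite sign to that of Nlrp3.

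Of 24 signalling genes downstream of the receptors, 24 were tested and limma called 0 in either direction, with a median of 0.088. The smallest p-values were those of Irak4, the kinase that starts the cascade (difference 1.02, limma adjusted p = 0.0507), and Irak3, an inhibitor of it (difference 1.32, limma adjusted p = 0.0537). Both passed without macrophages 2 (adjusted p = 0.00937 and 0.0403). Of 16 genes known to be induced by interleukin 1 or NF-kappaB, 14 were tested, 0 were called higher and 1 lower, with a median of -0.025. That gene was Ccl3, a chemokine, with 1.58, 0.87, 2.09 and 2.78 in macrophages 1 to 4, against 4.60, 3.57, 3.61 and 3.87 in microglia 1 to 4. The groups did not overlap, and Ccl3 was 4.24-fold lower in macrophages (difference -2.08 with a standard error of 0.43, limma adjusted p = 0.026), a call that the animal block ended (adjusted p = 0.0624). Il6 and Csf3 of this list were too dim to test.

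**Figure D5:**
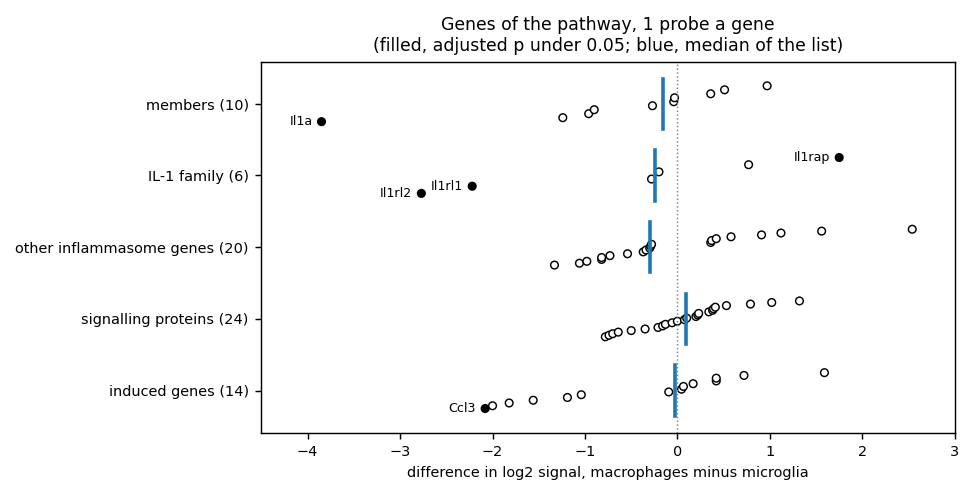
Difference in log2 signal, macrophages minus microglia (horizontal axis), for each tested gene of the 10 members and of 4 further lists, with the number tested in brackets. Each point is 1 gene by its brightest tested probe, filled and named where the limma adjusted p was under 0.05, and the blue line is the median of the list. The medians lie between -0.30 and 0.088, and the 5 filled points are Il1a, Il1rl2, Il1rl1, Il1rap and Ccl3.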

How the data were processed

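The study holds 8 one-colour Agilent arrays. The scanner intensity of each spot was deposited by the authors as Feature Extraction output (version 10.7.3.1, per the file headers), background-subtracted without scaling between arrays. The authors also deposited log2 values of the same arrays, with column medians of 4.604 to 4.606 and correlations of 0.996 to 1.000 with the scanner values; their normalization is not given in the sources used here. Of 62976 spots per array, 3671 controls and spots with feature outlier flags were left out. Replicate spots were averaged on the log2 scale and the 75th percentile of each array was subtracted. Gene names and mm9 coordinates are those of the array files. Groups were compared with lmFit and eBayes of limma 3.58.1 (R 4.3.3), two-sided, over 29359 probes, with Benjamini-Hochberg adjustment; tables were made with pandas 2.3.3 and numpy 2.4.6 under Python 3.11.15. The procedure was tested on simulated data. For a probe dim in some samples, signals under the array's floor, the lowest among probes well above background (-5.00 to -3.42), were raised to it before a fold was called "at least". The number of arrays, 4 a group, limits the precision.

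The members, gene lists and rules were chosen with earlier results of these data known. Named genes were every member, the 2 called genes of each pathway list with the largest change (the 2 with the smallest p where none was called), the brightest gene of each marker list (1 such gene is not reported here), and the 3 genes most correlated with Il1a, Il1b and Nlrp3. Il1rap, named beside its list's count, S100a9, Mmp8, Ly6g and the genes too dim to test were named after their values were seen. Pairing comes from the labels, which give the animal. Across probes, the 2 samples of animals A to D deviated from their group means with correlations of 0.0422, 0.0983, 0.0697 and -0.0185; reported values come from the unblocked fit. Alternatives covered pairing, slide, scaling, background correction, filters, probe choice, the variance model and each array left out.

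Other marker lists, by summed signal, were those of brain-border macrophages (brightest F13a1, 24.7 to 136 in macrophages and 48.4 to 88.5 in microglia), lymphoid cells (Cd79b, 2.84 to 18.4 and 2.15 to 4.85 in the same order), dendritic cells (Cd209a, 1.67 to 9.62 and 1.46 to 3.37), neural cells (Snap25, 450 to 727 and 399 to 591) and mural cells (Cspg4, 0.334 to 5.76 and 0.224 to 0.439). Limma called 2 of 7 tested lymphoid genes and 2 of 9 neural genes higher in macrophages, and 1 of 7 brain-border genes lower. It called 0 of 5 dendritic genes and 0 of 1 mural gene. Of all tested probes 2.34% were called higher and 4.11% lower. Cd79b itself was not called (difference -1.03, limma adjusted p = 0.231). The neural sums came mostly from the Snap25 probe, with a mean log2 signal of 9.01 in macrophages and 8.97 in microglia. The median log2 signal of the 12 neural markers was -1.94 to -1.25 in macrophages and -3.26 to -2.05 in microglia. The brightest neutrophil marker was Csf3r.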

Additional observations from a re-analysis of the deposited data

How the results depend on the processing

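The reported fit called 688 of all tested probes higher and 1206 lower in macrophages, and of the 12 probes of the interleukin 1 system 0 higher and 2 lower. With the animal as a replicate block these numbers were 352 and 735, and 1 of the 12 was lower. With slide as a block 429 were higher and 1 of the 12 was lower. With slide and animal as blocks (replicate block) 245 were higher and 598 lower, and 0 of the 12 were lower. Animal B, split over the slides, does not enter the difference in that fit. Within slide 1 16 were higher and 74 lower, within slide 2 17 and 187, and 0 of the 12 were lower on either. Centring arrays on their median called 1064 higher, normexp background correction 1118 and an intensity trend in the variance 1090. Testing all probes without a filter called 406 higher, and 1 of the 12 lower. With 1 probe a gene 1 of the members was lower. Leaving out 1 array at a time gave 305 to 2095 higher and 676 to 2005 lower, with 0 to 1 of the 12 higher and 0 to 3 lower; the highest of the counts over all probes came without macrophages 2 and the lowest without microglia 2. The share of calls that were higher was 36.3% in the reported fit, 53.2% with median centring, which moved the median of all probes by 0.21, and 25.4% when only probes detected on all arrays set the percentile, which moved it by -0.16. It was 44.1% with normexp, 43.6% with the intensity trend, 17.8% within slide 1, 8.33% within slide 2 and 51.1% without macrophages 2.

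Il1a stayed lower in 24 of 24 alternatives (-4.74 to -1.97) and was called in 12, Nlrp3 probe 2 in 23 of 23 (-1.78 to -1.27, called in 17) and Nlrp3 probe 1 in 24 of 24 (-1.53 to -1.04, called in 7). Il1rn stayed higher in 24 of 24 (0.44 to 1.76, called in 1). Signs turned only for probes that were never called. Casp1 was 0.02 with slide as a block, 0.15 with slide and animal, 0.063 within slide 2 and 0.17 with median centring, and -0.25 to 0.24 leaving out 1 array. Il1r1 was 0.18 with median centring, 0.12 with quantile normalization, 0.42 with normexp, 0.11 with the authors' log2 values, and -1.29 to 1.08 leaving out 1 array. Il1r2 was -0.24 with slide and animal, and -0.14 to 0.72 leaving out 1 array. Il1b was -0.40 within slide 1. The causes were not tested. Leaving out spots with a flagged local background, added after seeing the data, changed none of the calls among the 12. Probes near background, Il1r1 above all, limit what can be measured.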

Other observations

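P2rx7 and Tnf were picked out of the pathway lists after their values were seen. P2rx7, the ATP-gated channel known as a trigger of the NLRP3 inflammasome, had 2.21, 0.22, 2.14 and 2.23 in macrophages 1 to 4, against 2.91, 2.85, 3.16 and 3.22 in microglia 1 to 4. Every macrophage sample lay below every microglia sample, yet this probe, the brightest of 3, was not called (difference -1.33, limma adjusted p = 0.125), and without macrophages 2 it was (-0.84, limma adjusted p = 0.0334). The other P2rx7 probes had larger negative differences, -2.11 and -1.61, and were not called either (limma adjusted p = 0.201 and 0.155). Tnf, a cytokine induced along with interleukin 1, had -0.54, -2.42, 0.41 and 0.63 in macrophages 1 to 4, against 1.63, 0.70, 1.48 and 1.53 in microglia 1 to 4. Its groups did not overlap either, and it was not called (difference -1.82, limma adjusted p = 0.13) with or without macrophages 2 (-1.17, limma adjusted p = 0.075).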
